A study of Homo sapiens with 17 samples.

Results

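The 10 genes described here join classical targets of the hypoxia response (ADM, VEGFA, CA9, SLC2A1, SLC2A3, NDRG1, BNIP3 and EGLN3) with a pair of alpha-arrestins whose genes respond to glucose (TXNIP and ARRDC4). They were found by symbol among the 57820 genes listed in each of 17 RNA-seq libraries, and all 10 were listed. They were selected on their values after ARV-771, where TXNIP was far higher and ADM far lower than in DMSO, so the ARV-771 values below are a description with no test.

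The study asked how a distal enhancer called e1, brought into contact with SOX2, the gene of a squamous lineage transcription factor, bears on squamous cancer cells. KYSE140, a line of esophageal squamous cell carcinoma, gave 13 libraries, and SKMES1, a line of lung squamous cell carcinoma, gave 4. KYSE140 cells prepared for CRISPRi, which represses the site a guide points to without cutting it, received e1 guides (2 libraries, guides 1 and 2) or negative-control guides (2 libraries, NC 1 and NC 2). KYSE140 cells with a cutting Cas9 received SOX2 guides (3 libraries, guides 2, 3 and 4) or control guides to the AAVS1 safe-harbour locus and to a site labelled Chr2.2 (1 library each). KYSE140 cells were also kept for 6 h in 0.5 µM ARV-771 (2 libraries, A and B) or in DMSO, its solvent (2 libraries, A and B). SKMES1 cells carrying dCas9-VP64 with further activators (CRISPRa) received e1 guides (2 libraries, guides 1 and 3) or negative-control guides (2 libraries). The guide-bearing cells were infected, drug-selected pools and not clones, and replicates were different guides of 1 group or separate cultures, so the p-values measure only the spread between these libraries. ARV-771 is a bifunctional molecule that marks BET proteins, the readers of acetylated histones, for destruction. The study's text names cereblon as the ubiquitin ligase it recruits, whereas the published chemistry of ARV-771 uses a ligand of VHL.

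In cells with enough oxygen, EGLN prolyl hydroxylases modify the alpha subunits of the hypoxia-inducible factors (HIF1A and EPAS1), and the VHL ubiquitin ligase then removes them. With little oxygen the alpha subunits persist, pair with ARNT and switch on genes for glucose uptake, glycolysis, pH control, vessel growth and mitophagy. TXNIP and ARRDC4 are switched on by MondoA (MLXIP) with its partner MLX when glucose metabolites accumulate, and their proteins remove glucose transporters from the cell surface. Tumours of squamous type are often poorly oxygenated, and SLC2A1 is known to be high in them. The cells here were not reported to have been kept in low oxygen, so the values describe these genes under ordinary culture.

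The sequences just before the start sites of 4 of the genes are shown because these genes moved apart from each other while sharing short motifs. HIF recognises ACGTG or GCGTG, and MondoA recognises paired elements related to CACGTG, which holds ACGTG on both strands. Capitals mark every ACGTG or GCGTG, read on either strand (CACGT and CACGC are the same motifs on the opposite strand). Each line is the 250 bases 5′ of the start site given by RefSeq, 5′ to 3′ along the gene. The RefSeq table is of build GRCh38.p14, and each sequence was placed by its only exact match in GRCh37, at chr1:145439075-145439324 for TXNIP and chr15:98503683-98503932 for ARRDC4 (both plus strand), chr11:10326370-10326619 for ADM (plus strand) and chr10:133795428-133795677 for BNIP3 (minus strand).
TXNIP: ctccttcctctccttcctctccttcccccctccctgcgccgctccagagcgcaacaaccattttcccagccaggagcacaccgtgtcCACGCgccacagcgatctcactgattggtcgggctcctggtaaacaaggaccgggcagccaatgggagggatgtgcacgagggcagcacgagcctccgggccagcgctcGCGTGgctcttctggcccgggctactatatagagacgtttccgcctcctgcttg
ARRDC4: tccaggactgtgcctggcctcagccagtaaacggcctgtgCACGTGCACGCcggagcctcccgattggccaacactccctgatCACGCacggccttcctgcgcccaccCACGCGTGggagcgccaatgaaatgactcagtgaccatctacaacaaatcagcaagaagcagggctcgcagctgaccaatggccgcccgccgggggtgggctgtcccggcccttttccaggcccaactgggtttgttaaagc
ADM: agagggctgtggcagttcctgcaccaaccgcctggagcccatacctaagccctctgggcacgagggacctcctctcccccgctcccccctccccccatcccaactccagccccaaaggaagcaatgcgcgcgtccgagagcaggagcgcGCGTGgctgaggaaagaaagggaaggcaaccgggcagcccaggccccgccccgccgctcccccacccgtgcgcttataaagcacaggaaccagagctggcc
BNIP3: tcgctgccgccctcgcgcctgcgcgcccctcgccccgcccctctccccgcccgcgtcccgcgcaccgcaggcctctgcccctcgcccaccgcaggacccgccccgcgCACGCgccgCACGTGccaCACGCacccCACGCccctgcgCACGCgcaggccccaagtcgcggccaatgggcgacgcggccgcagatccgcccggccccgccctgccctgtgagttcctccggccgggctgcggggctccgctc

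Of the 10 genes, 7 had an entry in the promoter table (VEGFA, SLC2A3 and NDRG1 had none). Counting the base before the start site as -1, CACGTG lay at -210 to -205 before ARRDC4 and at -134 to -129 before BNIP3, and 6.34% of all 35116 promoters of this length hold it. ACGTG on either strand was present before ARRDC4, BNIP3 and CA9 (18.5% of all promoters). GCGTG was present before ARRDC4 and BNIP3 (4 matches each), TXNIP (2 matches) and ADM (1 match), and 32.2% of all promoters hold it. TATAAA lay just upstream of ADM and SLC2A1 (10.7% of all promoters), and EGLN3 had none of the motifs searched. A match is a description of letters in the window and not a bound site. Only the exact CACGTG was searched, so related or paired elements of the kind MondoA recognises would be missed. The stretch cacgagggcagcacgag before TXNIP, for example, holds near matches to CACGTG that were not searched for or marked.

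The total expected count, the number of reads that RSEM assigned to genes, ranged from 7260730 to 15781463 per library, where 3 counts are worth 0.19 to 0.413 CPM, a count divided by its library's total. SOX2 itself followed the labels. It fell from 379 and 365 TPM to 120 and 128 TPM with the e1 guides, and from 397 and 428 TPM to 103, 125 and 221 TPM with the SOX2 guides. In SKMES1 it rose from 1.68 and 1.53 TPM to 224 and 316 TPM with the e1 guides. After ARV-771 SOX2 was also lower than in DMSO, by a log2 fold change of -3.77. The 8 squamous markers summed to 5640 to 26700 TPM in KYSE140, with 6560 and 6590 TPM in the CRISPRi controls beside 9690 and 9730 TPM with the e1 guides and 7520 and 7550 TPM in the knockout controls beside 23000 to 26700 TPM with the SOX2 guides. They summed to only 84.2 to 268 TPM in the SKMES1 controls, so the squamous identity of SKMES1 is hardly seen in its RNA. The sums hide opposite changes, given here as log2 fold changes. With e1 repression KRT14 (3.63) and KRT6A (0.78) rose, while SOX2 (-1.57), TP63 (-0.62) and PKP1 (-0.59) fell. With SOX2 knockout KRT14 (4.14), KRT6A (1.99), KRT5 (1.94), DSG3 (1.57) and PKP1 (0.88) rose, while SOX2 (-1.28) and TP63 (-1.22) fell. The 6 fibroblast markers, led by COL1A1, summed to 13.5 and 15.9 TPM in the CRISPRi controls and 37.4 and 39.1 TPM with the e1 guides, and to 10.2 and 19.2 TPM in the knockout controls and 39.5 to 44.2 TPM with the SOX2 guides. Of the 6, 5 were at 0 TPM in both CRISPRi controls, and only COL1A1 had enough reads to be tested. COL1A1 rose in both, by 1.29 ± 0.09 and 2.17 ± 0.11 (edgeR adjusted p = 1.3e-08 for each). Among the immune markers CD68 rose from 1.08 and 0.84 TPM to 24.4 and 25.8 TPM with the e1 guides in KYSE140, and from 3.93 and 3.24 TPM to between 53.8 and 70.2 TPM with the SOX2 guides, while the leukocyte gene PTPRC had at most 4 counts in any library. CD68 counts were not whole, which marks shared reads. The part of these markers in the changes of the 10 genes was not tested.

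Calls rest on edgeR's quasi-likelihood test and need a fold change over 1.5 together with a p, adjusted by Benjamini-Hochberg over all genes tested, under 0.05. With e1 repression 8 of the 10 genes had enough reads to be tested and 6 were called, against 20.0% of all genes tested: 3 rose (9.30% of all genes) and 3 fell (10.7%). With SOX2 knockout 9 were tested and 7 were called, against 29.7% of all genes: 5 rose (16.3%) and 2 fell (13.5%). EGLN3, 1 of the 5, passed the filter on low counts only through the SOX2 guide libraries, where it was high. Its call is thus a description and no support. With e1 activation all 10 were tested and 0 were called, against 0.188% of all genes; 1 of the 10 had an unadjusted p under 0.05, and DESeq2 and limma called 0 as well. After ARV-771, the contrast that chose the genes, the 10 genes were not counted, and 52.9% of all genes passed the same rule (21.2% upwards and 31.7% downwards).

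**Figure D1:**
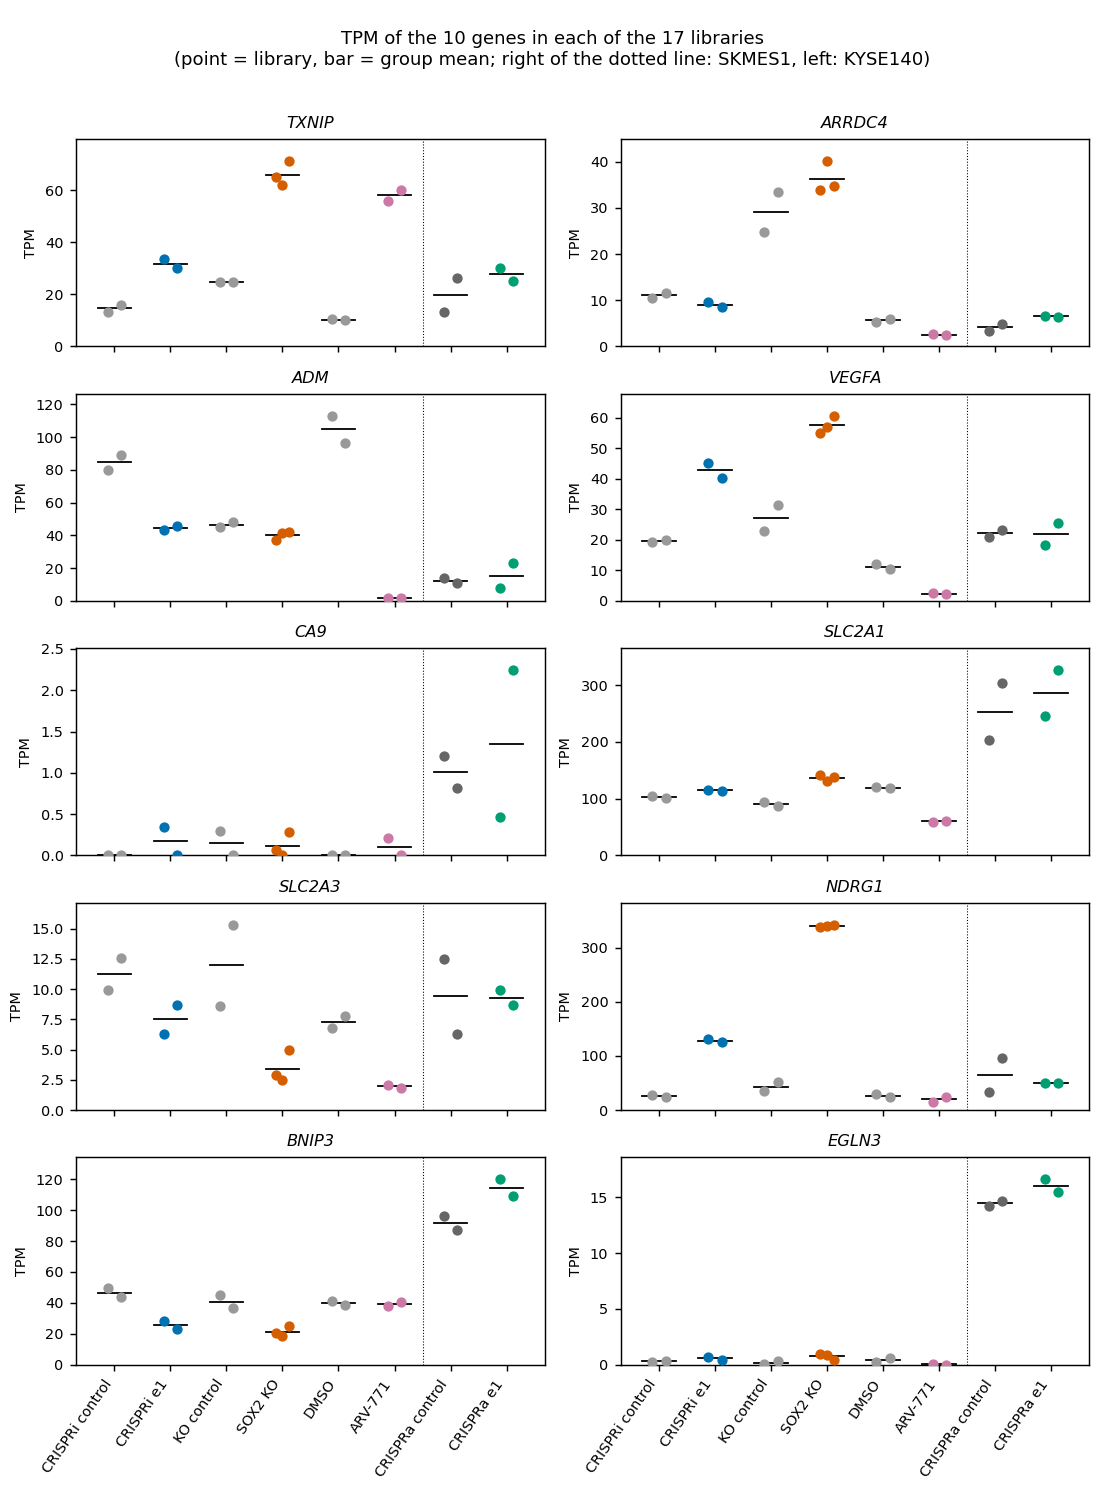
TPM of each of the 10 genes (vertical axes, linear and starting at 0) in the 17 libraries, by group along the horizontal axis; points are libraries and bars group means. NDRG1 stands at 338 to 342 TPM in the 3 SOX2 knockout libraries, ADM at 2.01 and 2.08 TPM in the 2 ARV-771 libraries, and EGLN3 above 14 TPM only in the 4 SKMES1 libraries.

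TXNIP (chr1:145438490-145442635, plus strand, GENCODE release 44 on GRCh37) encodes an arrestin that binds thioredoxin and lowers glucose uptake. Its level was 13.2 and 16.1 TPM in the CRISPRi controls and 33.6 and 30 TPM with the e1 guides. It was 24.6 and 24.8 TPM in the knockout controls and 65, 62 and 71.2 TPM with the SOX2 guides. Groups did not overlap in either comparison, and TXNIP rose in both, by a log2 fold change of 1.13 ± 0.10 (SE) with e1 repression (edgeR adjusted p = 2.4e-07) and of 1.59 ± 0.08 with SOX2 knockout (adjusted p = 1.6e-08). After ARV-771 it stood at 56.1 and 60.3 TPM, beside 10.5 and 10.1 TPM in DMSO, a log2 fold change of 3.14 that ranged from 2.06 to 3.21 over 15 alternative analyses. In SKMES1 the controls lay far apart, at 13.2 and 26.5 TPM, and held the e1 guide 3 library (25.2 TPM) but not the guide 1 library (30.2 TPM) between them. The change there was 0.42 ± 0.33 (edgeR adjusted p = 0.611), and leaving out the second control made it 1.02 and a call. Over all 8 groups the mean level was highest in the SOX2 knockout (66.1 TPM) and next highest after ARV-771 (58.2 TPM), whose libraries did not overlap, and lowest in DMSO (10.3 TPM).

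ARRDC4 (chr15:98503933-98517063, plus strand) encodes the closest relative of TXNIP with the same response to glucose, and it was called neither with e1 repression nor with SOX2 knockout. The CRISPRi controls had 10.5 and 11.6 TPM of it and the e1 guide libraries 9.57 and 8.44 TPM (log2 fold change -0.21 ± 0.11, edgeR adjusted p = 0.125). Knockout controls had 24.8 and 33.5 TPM and the SOX2 guides 34, 40.1 and 34.8 TPM, a change of 0.45 ± 0.11 (edgeR adjusted p = 0.00501) that is under the fold threshold and passed it without the Chr2.2 library, at 0.60. Where TXNIP was higher after ARV-771 than in DMSO, ARRDC4 was lower, at 2.71 and 2.43 TPM beside 5.35 and 6.02 TPM (log2 fold change -0.43, from -1.50 to -0.32 over 15 alternatives). In SKMES1 the e1 guides gave 6.62 and 6.41 TPM and the controls 3.31 and 4.94 TPM, groups that did not overlap, with a change of 0.75 ± 0.18 (edgeR adjusted p = 0.184) that was called in the fit of all 17 libraries and without the filter on low counts. Across the 13 KYSE140 libraries, Pearson's r of log2(TPM + 1) between TXNIP and ARRDC4 was 0.26. This is a description over libraries that share groups and include the ARV-771 and DMSO libraries that chose the genes.

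Regulators around this pair gave 0 calls with e1 repression and 2 with SOX2 knockout, where 20.0% and 29.7% of all genes were called. Of 3 glucose-sensing factors (MLXIP, MLXIPL and MLX), 0 were called with e1 repression in edgeR (2 at an unadjusted p under 0.05, and 0 by DESeq2 or limma), and MLXIPL, which encodes ChREBP, fell with SOX2 knockout (-0.95 ± 0.27, edgeR adjusted p = 0.0102). Among 9 genes of the thioredoxin system and of TXNIP ubiquitin ligases, 0 were called by edgeR with e1 repression (6 at an unadjusted p under 0.05, 0 by DESeq2 and 1 by limma) and 1 rose with SOX2 knockout, ITCH, a ligase that marks TXNIP for removal (0.70 ± 0.09, edgeR adjusted p = 4.7e-05). After ARV-771, MLXIP was lower by a log2 fold change of -1.10 and MLX by -0.79, while MLXIPL was higher by 0.71. Thioredoxin itself, TXN, was higher by 1.07. The ARV-771 fold changes of this paragraph are under TMM scaling. Library-size, TPM and mitochondrial scaling each put the median of all genes lower. The alpha-arrestin genes ARRDC3 and ARRDC2 were far lower after ARV-771, ARRDC3 by -3.42 (28.9 and 26.4 TPM in DMSO, 1.44 and 1.6 TPM after the drug) and ARRDC2 by -2.82. ARRDC1, of the same family, stood at 0.39 and was not called. ARRDC3 was not called with either e1 repression (-0.46 ± 0.09) or SOX2 knockout (-0.13 ± 0.10).

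ADM (chr11:10326620-10328944, plus strand) encodes adrenomedullin, a secreted peptide that widens vessels and is among the genes most responsive to HIF. Its level was 80.1 and 89 TPM in the CRISPRi controls and 43.3 and 45.5 TPM with the e1 guides, a fall of -0.85 ± 0.08 on the log2 scale (edgeR adjusted p = 7.2e-07). With the SOX2 guides it was 37.3, 41.2 and 41.9 TPM, just below the 45.2 and 48 TPM of their controls, and the difference in counts was -0.02 ± 0.10 (edgeR adjusted p = 0.902). The CRISPRi controls were thus well above the knockout controls, and the e1 libraries stood near the latter. After ARV-771 it was 2.08 and 2.01 TPM beside 113 and 96.6 TPM in DMSO, a log2 fold change of -4.97 with a range of -6.04 to -4.71 over 15 alternatives. In SKMES1 it was low throughout, at 14 and 10.8 TPM in the controls and 7.61 and 23.4 TPM with the e1 guides, whose libraries lay on either side of the controls (0.36 ± 0.45, edgeR adjusted p = 0.767).

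Other genes of the adrenomedullin system were few in these cells, and 3 of 9 had enough reads to be tested in KYSE140. With e1 repression PAM, the enzyme that amidates the peptide, rose by 0.68 ± 0.07 (edgeR adjusted p = 5.5e-07) and CALCRL, which encodes its receptor, fell by -1.85 ± 0.64 (adjusted p = 0.0286). CALCRL also fell with SOX2 knockout (-3.75 ± 0.59, edgeR adjusted p = 2.1e-04). After ARV-771, under TMM scaling, ADM2, a related peptide gene, was lower by -2.49 and CALCRL by -1.29, and PAM was higher by 0.87.

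VEGFA (chr6:43737921-43754224, plus strand), the main growth factor of vessels, rose with e1 repression, where ADM fell, and with SOX2 knockout, where ADM was not called. It rose from 19.3 and 20 TPM to 45.2 and 40.4 TPM with the e1 guides (1.14 ± 0.09, edgeR adjusted p = 7.7e-08) and from 23 and 31.5 TPM to 55, 56.9 and 60.6 TPM with the SOX2 guides (1.43 ± 0.08, edgeR adjusted p = 3.8e-08). No library of either perturbed group overlapped its controls. After ARV-771 VEGFA was lower, at 2.58 and 2.19 TPM beside 12 and 10.4 TPM in DMSO (-1.71, from -2.79 to -1.56 over the alternatives). In SKMES1 the e1 guides gave 18.2 and 25.5 TPM, to either side of the controls at 21 and 23.3 TPM (0.03 ± 0.17, edgeR adjusted p = 0.955). Of the other VEGF ligands and receptors, 5 were tested in KYSE140. FLT1, a VEGF receptor, fell with e1 repression (-1.15 ± 0.16, edgeR adjusted p = 3.5e-05) and with SOX2 knockout (-3.68 ± 0.15, adjusted p = 3.1e-09). PGF, placental growth factor, rose with e1 repression (1.96 ± 0.31, edgeR adjusted p = 1.1e-04).

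SLC2A1 (chr1:43391024-43424564, minus strand) encodes GLUT1, the main glucose importer of these cells, and had the highest level of the 10 genes in most groups. It was 104 and 101 TPM in the CRISPRi controls and 116 and 114 TPM with the e1 guides, a difference of 0.16 ± 0.06 (edgeR adjusted p = 0.0358) that is under the fold threshold. With the SOX2 guides it rose from 94 and 87.7 TPM to 141, 132 and 138 TPM (0.65 ± 0.08, edgeR adjusted p = 2.5e-05), close to that threshold, and it was not called with library-size scaling (0.45), with mitochondrial scaling (0.55) or without the Chr2.2 library (0.58). After ARV-771 it was 59.5 and 61 TPM beside 120 and 119 TPM in DMSO (-0.35 in counts scaled by TMM, -0.97 on log2(TPM + 1)). SKMES1 had more, 203 and 303 TPM in the controls and 246 and 326 TPM with the e1 guides, and the groups overlapped.

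SLC2A3 (chr12:8071826-8171603, minus strand) encodes GLUT3, an importer with high affinity for glucose. It fell with SOX2 knockout, where SLC2A1 rose, and both were lower after ARV-771. SLC2A3 was 9.89 and 12.6 TPM in the CRISPRi controls and 6.3 and 8.72 TPM with the e1 guides. Its expected counts there were 253.02 and 319 against 85.89 and 127.46, so the fall was larger in counts (-1.16 ± 0.16, edgeR adjusted p = 1.9e-05) than on log2(TPM + 1), where it was -0.53 and not called. With the SOX2 guides SLC2A3 fell from 8.6 and 15.3 TPM to 2.86, 2.48 and 4.92 TPM (-1.32 ± 0.24, edgeR adjusted p = 6.9e-04). After ARV-771 it was 2.07 and 1.86 TPM beside 6.78 and 7.78 TPM in DMSO (-1.51, from -2.58 to -1.42 over the alternatives). In SKMES1 it showed no call, with 12.5 and 6.28 TPM in the controls and 9.9 and 8.65 TPM with the e1 guides. SLC2A3 shares reads with its near copy SLC2A14, which held 0 to 5.83% of their joint counts, and adding those counts changed no call. Among 7 other genes of the SLC2A transporter family tested, 4 were called with e1 repression (20.0% of all genes) and 4 with SOX2 knockout (29.7%). SLC2A6 rose and SLC2A5, SLC2A8 and SLC2A13 fell in both comparisons. Counts of SLC2A5 were not whole in 12 libraries and those of SLC2A6 in 5, which marks shared reads. SLC2A5, which carries fructose, fell by -2.15 ± 0.20 with e1 repression (edgeR adjusted p = 4.2e-07) and by -2.63 ± 0.34 with SOX2 knockout (adjusted p = 4.3e-05).

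CA9 (chr9:35673925-35681156, plus strand) encodes a carbonic anhydrase of the cell surface that is a standard tissue marker of hypoxia. It was hardly seen in KYSE140, with 0 to 2 counts in each of the 13 libraries, and was not tested there. The SKMES1 controls held 12 and 6 counts and the SKMES1 libraries with e1 guides 4 and 20, or 0.47 to 2.24 TPM, and the groups overlapped (0.15 ± 0.71, edgeR adjusted p = 0.948).

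NDRG1 (chr8:134249418-134314265, minus strand) encodes a protein of differentiation and stress that is strongly induced in hypoxia, and its change was the largest among those of the 10 genes tested in e1 repression and in SOX2 knockout, though not in e1 activation. Its level was 27.5 and 23.7 TPM in the CRISPRi controls and 131 and 125 TPM with the e1 guides, a rise of 2.22 ± 0.07 on the log2 scale (edgeR adjusted p = 5.8e-13). With the SOX2 guides it rose from 34.3 and 51.3 TPM to 338, 340 and 342 TPM (3.18 ± 0.12, edgeR adjusted p = 1.4e-09), and the guide libraries were nearly equal. After ARV-771 it was 15.5 and 24.5 TPM beside 29.1 and 24 TPM in DMSO, groups that overlap, with a sign that depended on the scaling (0.31 with TMM, -0.15 with library size, -0.42 on log2(TPM + 1), -0.77 with mitochondrial scaling). The SKMES1 controls were far apart, at 33.4 and 95.4 TPM, around 49.3 and 49.7 TPM with the e1 guides (-0.23 ± 0.44, edgeR adjusted p = 0.859). Without the first of these controls the change was -0.77 and called, and without the second it was 0.68. NDRG4, a relative known mainly from brain and heart, fell with e1 repression (-0.78 ± 0.17, edgeR adjusted p = 0.00161) and rose with SOX2 knockout (2.99 ± 0.24, adjusted p = 7.8e-07).

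BNIP3 (chr10:133781188-133795471, minus strand) encodes a receptor for mitophagy on the outer mitochondrial membrane. It fell from 49.7 and 43.6 TPM to 28 and 23.2 TPM with the e1 guides (-0.84 ± 0.13, edgeR adjusted p = 6.2e-05) and from 45.2 and 36.5 TPM to 20.3, 18.7 and 24.7 TPM with the SOX2 guides (-0.75 ± 0.15, adjusted p = 0.0011). The second call was lost without the AAVS1 library (-0.56). After ARV-771 its TPM was almost the same, 38.1 and 40.8 beside 41.5 and 38.8 in DMSO, while the log2 fold change was 0.69 with TMM, 0.23 with library size and -0.39 with mitochondrial scaling. BNIP3P1, a pseudogene copy, held 12.6 to 22.6% of the joint counts of the pair in each library, and adding them changed no call. BNIP3L, the sister gene of BNIP3 with the same role, rose with SOX2 knockout (1.64 ± 0.10, edgeR adjusted p = 6.1e-08), so the paralogues moved in opposite directions there. Across the 13 KYSE140 libraries Pearson's r of log2(TPM + 1) between BNIP3 and NDRG1 was -0.92, the strongest among the 28 pairs of the 8 expressed genes. This too is a description that includes the ARV-771 and DMSO libraries.

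EGLN3 (chr14:34393433-34931980, minus strand) encodes a HIF prolyl hydroxylase that HIF itself induces. KYSE140 had 0 to 24 counts per library, or at most 0.97 TPM. The SOX2 guides gave 24, 11 and 7 counts against 1 and 4 in their controls, a rise of 2.29 ± 0.76. It was called, and the call was lost without the AAVS1 library (1.47). EGLN3 did not pass the filter for a test without guide 2 or guide 3. It was thus tested only through the group where it was high, and the rise is a description with no p given. In ARV-771 it had 1 and 0 counts beside 6 and 5 in DMSO. SKMES1 had 14.2 and 14.7 TPM in the controls and 16.6 and 15.5 TPM with the e1 guides (0.16 ± 0.15, edgeR adjusted p = 0.695).

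**Figure D2:**
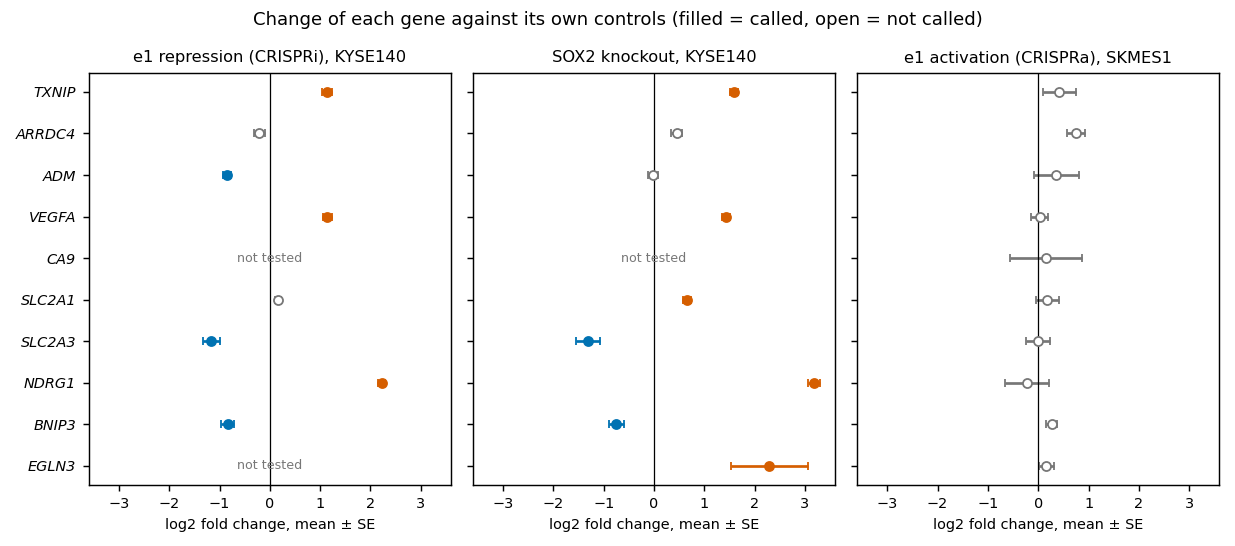
Log2 fold change against the group's own controls (horizontal axis, point with its SE) for each of the 10 genes in e1 repression, SOX2 knockout and e1 activation; filled points were called, orange higher and blue lower. NDRG1 (2.22 and 3.18), TXNIP and VEGFA lie to the right and SLC2A3 and BNIP3 to the left in the first 2 panels, ADM lies to the left only in the first (-0.85), and no point of the third was called.

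The e1 repression and SOX2 knockout comparisons share no control, and the difference between their effects was tested directly over their 9 libraries. Of the 9 genes tested, 3 differed by the same rule, against 16.6% of all genes, and each was lower with e1 repression than with SOX2 knockout. For ADM the difference was -0.81 ± 0.13 (edgeR adjusted p = 3.9e-04), for NDRG1 -0.94 ± 0.14 (adjusted p = 2.1e-04) and for ARRDC4 -0.64 ± 0.17 (adjusted p = 0.0112). TXNIP (-0.44 ± 0.13) and SLC2A1 (-0.47 ± 0.10) differed in the same direction by less than the fold threshold. VEGFA, SLC2A3, BNIP3 and EGLN3 gave no call. With mitochondrial scaling 0 of the 3 were called, and the median of all genes in this contrast was 0.49 instead of 0.03. The part of that shift in the lost calls was not tested.

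Most of the genes already differed between the KYSE140 control groups, where guide, construct, solvent and culture cannot be told apart. Of 8 genes tested over the 3 control groups, 5 were called, against 16.5% of all genes. TXNIP, ARRDC4, VEGFA and NDRG1 were highest in the knockout controls, and ADM was highest in DMSO. From DMSO to the knockout controls the distance was 1.96 for ARRDC4 and 1.11 for TXNIP on the log2 scale, 1.02 for VEGFA, 0.65 for NDRG1 and 1.45 in the opposite direction for ADM. DMSO was also the baseline of the contrast that chose the genes, so this count and these distances are a description with no p given. The knockout and CRISPRi controls had no part in that choice. Relative to the CRISPRi controls, the knockout controls stood at 1.20 for ARRDC4, 0.70 for TXNIP, 0.61 for NDRG1, 0.23 for VEGFA and -0.81 for ADM. For ADM this offset was near the size of its change with e1 repression (-0.85 ± 0.08). Among all control libraries ADM ranged from 45.2 to 113 TPM, with the top of that range in DMSO. SLC2A1, SLC2A3 and BNIP3 were not called.

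Between the lines, 9 genes were tested in the control libraries and 6 were called, against 57.2% of all genes, 4 of them higher in SKMES1 (31.4% of all genes) and 2 lower (25.8%). EGLN3 was higher by 5.55 ± 0.25, SLC2A1 by 1.07 ± 0.11, BNIP3 by 0.97 ± 0.10 and NDRG1 by 0.75 ± 0.27. EGLN3, 1 of the 4, passed the filter on low counts only through SKMES1, where it was high. Its call is thus a description with no p given. The NDRG1 call rests on the second SKMES1 control, without which the difference was -0.16. ADM was lower by -2.63 ± 0.08 (edgeR adjusted p = 2.9e-09) and ARRDC4 by -1.72 ± 0.13. TXNIP, VEGFA and SLC2A3 were not called. The KYSE140 side includes DMSO, the baseline of the contrast that chose the genes, so these tests are not free of that choice. Line and construct cannot be told apart here, and in bulk RNA neither can fewer cells of a type and less RNA per cell.

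Other genes of the hypoxia pathway were counted from 3 lists, to be read against the 20.0% of all genes called with e1 repression (9.30% higher, 10.7% lower) and the 29.7% called with SOX2 knockout (16.3% higher, 13.5% lower). Among 17 HIF-responsive glycolysis genes, e1 repression gave 3 risen and 2 fallen genes with a median log2 fold change of 0.18 (median of all genes -0.00), and SOX2 knockout gave 2 risen and 1 fallen with a median of -0.02 (all genes -0.01). HK2, which traps glucose in the cell, rose in both, by 0.76 ± 0.08 (edgeR adjusted p = 1.7e-06) and 0.98 ± 0.09 (adjusted p = 2.1e-06). ENO2, a neuronal enolase, fell in both, by -0.87 ± 0.08 (edgeR adjusted p = 4.6e-07) and -1.98 ± 0.11 (adjusted p = 2.4e-08). PKM, pyruvate kinase, rose with e1 repression (0.70 ± 0.04, edgeR adjusted p = 9.5e-10) and stood at 0.47 ± 0.06 with SOX2 knockout.

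Of the other HIF-responsive genes, 26 were tested in e1 repression, with 7 risen, 5 fallen and a median of -0.08 (20.0% of all genes called), and 25 in SOX2 knockout, with 9 risen, 1 fallen and a median of 0.18 (29.7% of all genes called). BHLHE40, a transcriptional repressor, rose in both, by 1.5 ± 0.08 and 1.80 ± 0.08 (edgeR adjusted p = 3.2e-10 and 4.9e-09). LOX, which crosslinks collagen, fell with e1 repression (-1.57 ± 0.14, edgeR adjusted p = 2.0e-07). Within the HIF machinery 2 of 14 genes were called in each, a smaller share than over all genes. EPAS1, which encodes HIF-2 alpha, rose in both, by 1.09 ± 0.13 (edgeR adjusted p = 6.6e-06) and 2.54 ± 0.13 (adjusted p = 1.6e-08). HIF1A rose with SOX2 knockout (0.74 ± 0.08, edgeR adjusted p = 9.5e-06) and stood at 0.22 ± 0.05 with e1 repression. VHL, EGLN1 and EGLN2 were not called in either.

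**Figure D3:**
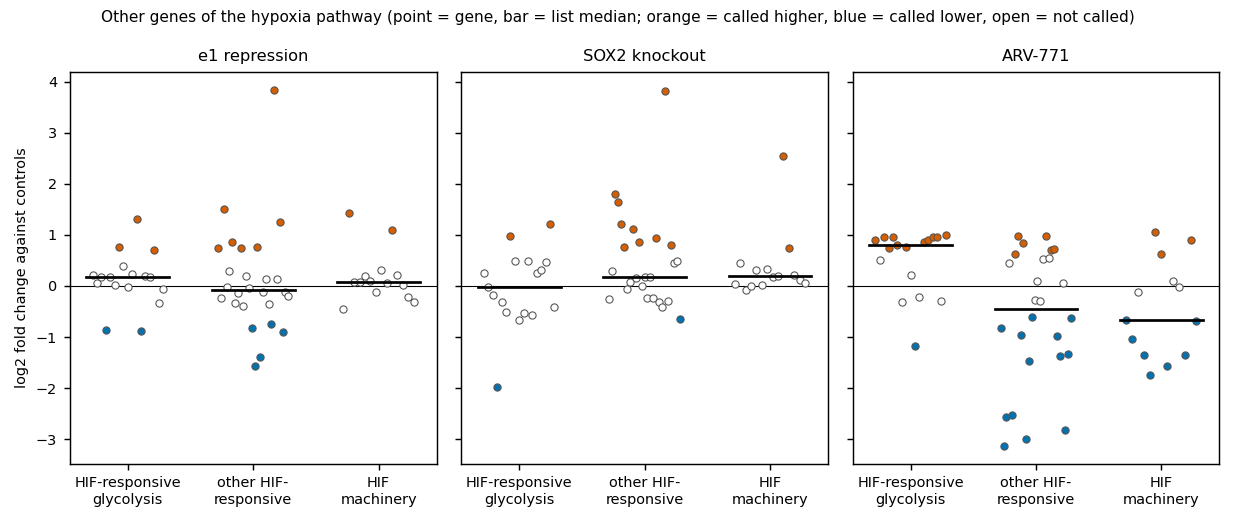
Log2 fold change (vertical axis) of the other hypoxia pathway genes in e1 repression, SOX2 knockout and ARV-771, in 3 lists along the horizontal axis; points are genes, bars list medians, and orange or blue marks a call. Under TMM scaling the glycolysis list has its median at 0.81 after ARV-771 with 11 genes called higher, a count that was 0 with library-size or mitochondrial scaling or on TPM.

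After ARV-771 the glycolysis genes and the other HIF-responsive genes lay on different sides of 0 under TMM scaling, where 21.2% of all genes were called higher and 31.7% lower. The glycolysis list had 11 genes higher and 1 lower (PFKFB3, -1.17) with a median of 0.81, led by GAPDH (0.95), ENO1 (0.96) and TPI1 (1.00), and the other HIF-responsive genes had 6 higher and 13 lower with a median of -0.45. DDIT4, an inhibitor of mTOR, was lower by -2.53, BHLHE40 by -2.56 and VLDLR by -2.82. In the HIF machinery 3 genes were higher and 7 lower with a median of -0.66. EGLN2 was lower by -1.74, EP300, a coactivator, by -1.56 and VHL by -0.68 (23.5 and 28.3 TPM in DMSO, 8.95 and 9.25 TPM after the drug), while HIF1A stood at -0.02. Every value of these lists depends on the scaling: the median of all genes was -0.04 with TMM, -0.50 with library size, -0.60 on log2(TPM + 1) and -1.12 with mitochondrial scaling, and the glycolysis median moved from 0.81 to 0.34, 0.13 and -0.28. The calls that were higher fell from 40.0% of all calls with TMM to 5.90%, 1.89% and 0.823%. The order of the lists did not change, as the glycolysis median was above, and the medians of the other HIF-responsive genes and of the HIF machinery below, that of all genes under each of these scalings.

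**Figure D4:**
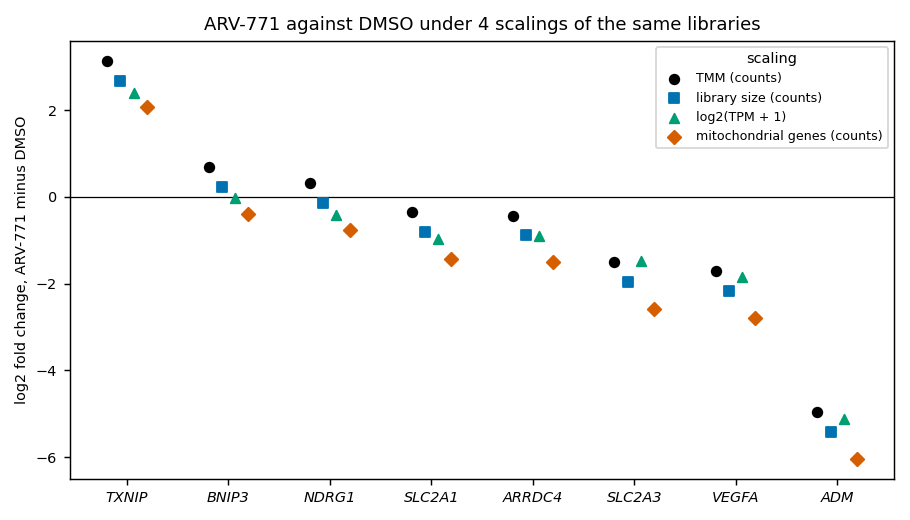
Log2 fold change of 8 of the genes after ARV-771 (vertical axis) under 4 scalings of the same libraries, drawn as 4 marker shapes. TXNIP stays above 0 (2.06 to 3.14) and ADM, VEGFA, SLC2A3, ARRDC4 and SLC2A1 below 0 under each of the 4, while BNIP3 and NDRG1 change sign.

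With e1 activation in SKMES1 only 0.188% of all genes were called in edgeR. The pathway lists had 0 called among 16 glycolysis genes, 28 other HIF-responsive genes and 14 genes of the HIF machinery. At an unadjusted p under 0.05 there were 1, 7 and 1 of these, and DESeq2 called 1, 3 and 0, limma 0 in each. The spread between replicates was wider there, with a biological coefficient of variation of 0.166 beside 0.0474 in e1 repression.

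Over the 13 KYSE140 libraries, the genes most like TXNIP in log2(TPM + 1) among 10220 expressed genes were CD63 (Pearson's r = 0.908), PSMB7 (0.866) and MYL12B (0.837). For ADM they were RTN4R (0.990), PDGFA (0.989) and SOX4 (0.988), and for BNIP3 they were BMP7 (0.979), SMCO4 (0.972) and PIPOX (0.971). These values describe libraries that share groups. They include the ARV-771 and DMSO libraries, on which TXNIP was chosen as higher and ADM as lower. The patterns of TXNIP and ADM, and the r between them, were thus partly set in advance. Among the 10 genes themselves, the highest r were those of VEGFA with ARRDC4 (0.85), SLC2A1 (0.84) and NDRG1 (0.82), while TXNIP ran opposite to SLC2A3 (-0.73), ADM (-0.65) and BNIP3 (-0.65).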

How the data were processed

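RNA-seq of poly-A RNA was measured in 17 libraries of 8 groups, mapped to groups by their sample labels. The authors aligned reads to hg19 with Bowtie2 and quantified genes with RSEM (versions not given in the sources used here). The deposited expected counts are RSEM's estimated reads per gene, not normalized, in which a read that fits several genes is shared among them. The deposited TPM values, from the same RSEM run of the authors, divide by a gene's effective length and sum to a fixed total. That length is estimated per library, so ratios of TPM and of expected counts can differ. FPKM was not used.

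After rounding, expected counts entered edgeR 4.0.16 (R 4.3.3), quasi-likelihood test, with TMM factors and filterByExpr (minimum count 10, minimum total 15), over only the groups compared, with Benjamini-Hochberg adjustment over all genes tested. Standard errors of log2 fold changes came from the same fits. The 3 KYSE140 control groups were compared in 1 test over all of them, with the distance between the highest and lowest group as its size. Alternatives were DESeq2 1.42.0, limma 3.58.1 (trend) on log2 TPM with a pseudocount of 1 or 0.1, restricted to a mean TPM of 1 or more, RLE factors, library size only, scaling to mitochondrially encoded genes, no filter, no minimum fold change, all libraries in 1 fit, leaving out each library, and a replicate block. Adding the counts of BNIP3P1 and SLC2A14 to BNIP3 and SLC2A3 was chosen after seeing the data. The main edgeR test, DESeq2, RLE factors and limma with a pseudocount of 1 were also run on simulated data. The other alternatives were not.

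The genes and the gene lists were chosen with earlier results of these data known. The text names all 10 genes, and from each list up to 3 risen and 3 fallen called genes with the smallest p, plus near copies that share reads. Some items are not reported here. VHL, the cell markers PTPRC and CD68, and values of listed genes in comparisons where this rule did not choose them were added after their values were seen. Genes most like TXNIP, ADM and BNIP3 were sought by Pearson's r where mean TPM reached 5. Gene coordinates are from GENCODE release 44 on GRCh37, the equivalent of hg19, and promoter sequences from RefSeq. TXNIP was matched by symbol there. Limits set by a count of 0 cover counting error only.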

Additional observations from a re-analysis of the deposited data

Results flagged for a closer look

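Of the 9 genes tested, 3 answered e1 repression and SOX2 knockout differently by a direct test of the difference in edgeR, and each of the 3 was lower with e1 repression. ADM fell with e1 repression (-0.85 ± 0.08) and stood at -0.02 ± 0.10 with SOX2 knockout, a difference of -0.81 ± 0.13 (SE, edgeR adjusted p = 3.9e-04). NDRG1 rose in both, by 2.22 ± 0.07 and 3.18 ± 0.12, and the difference was -0.94 ± 0.14 (edgeR adjusted p = 2.1e-04). ARRDC4 was called in neither (-0.21 ± 0.11 and 0.45 ± 0.11), and the difference was -0.64 ± 0.17 (edgeR adjusted p = 0.0112). The control groups of the 2 comparisons themselves differed in these genes, with the knockout controls at -0.81 for ADM, 0.61 for NDRG1 and 1.20 for ARRDC4 relative to the CRISPRi controls on the log2 scale. The part of that offset in the differences was not tested.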

How the results depend on the processing

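Of 968 recomputed values of single genes, 826 kept their direction and their side of the threshold, or, after ARV-771, moved by less than 1 SD. Counts of genes called over the whole table, 2764 in e1 repression, 4157 in SOX2 knockout, 2397 in the difference between them and 2303 among control groups, rose to 6103, 7123, 4010 and 6197 with no minimum fold change. Mitochondrial scaling gave 4420, 4914 and 4686 for e1 repression, the difference and the control groups. That scaling made 83.6% of the e1 repression calls higher instead of 46.4%, and library size made 36.2% of the SOX2 knockout calls higher instead of 54.7%. In e1 activation the 28 calls became 400 with DESeq2, 680 with mitochondrial scaling, 1116 with no filter, 784 with all libraries in 1 fit, and 9 and 8 with limma on TPM (pseudocounts 1 and 0.1), and leaving out 1 library gave 1 to 764 (1 without e1 guide 3, 764 without NC 1). Of the 10 genes, 1 was called there instead of 0 with no filter and with all libraries in 1 fit (ARRDC4), and 0 to 1 when 1 library was left out (TXNIP without NC 2, NDRG1 without NC 1). In the difference between e1 repression and SOX2 knockout the 3 called genes became 0 with mitochondrial scaling, 5 with no minimum fold change, and 1 both with all libraries in 1 fit and with limma on log2(TPM + 0.1). The causes were not tested.

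With e1 repression, mitochondrial scaling lost the calls of ADM (-0.47) and BNIP3 (-0.46) and turned uncalled ARRDC4 to 0.16. With SOX2 knockout, ADM lay between -0.09 and 0.02 when 1 library was left out. After ARV-771, BNIP3 turned to -0.39 with mitochondrial scaling and to -0.02 and -0.03 with limma. Uncalled genes changed sign in e1 activation. Mitochondrial scaling gave -0.29 for VEGFA, -0.21 for CA9, -0.13 for SLC2A1, -0.07 for BNIP3 and -0.18 for EGLN3. Limma gave -0.04 on both TPM scales for VEGFA, and 0.05 and 0.06 for SLC2A3, which library size put at 0.01. Leaving out 1 library there gave -0.56 to 0.89 for ADM, -0.16 to 0.20 for VEGFA, -0.88 to 0.88 for CA9, -0.06 to 0.48 for SLC2A1, -0.30 to 0.33 for SLC2A3 and -0.77 to 0.68 for NDRG1. In the difference between e1 repression and SOX2 knockout, mitochondrial scaling gave 0.03 for TXNIP, 0.20 for VEGFA and 0.40 for BNIP3, limma gave 0.02 on both scales for VEGFA and 0.07 and 0.08 for BNIP3, library size gave 0.06 for BNIP3, and the counts of near copies gave 0.00 for BNIP3. Leaving out 1 library there gave -0.07 to 0.57 for SLC2A3 and -0.27 to 0.08 for BNIP3. Between the lines VEGFA turned to 0.24 with mitochondrial scaling and to 0.27 and 0.29 with limma, and leaving out 1 library gave -0.19 to 0.03 for VEGFA, -0.38 to 0.63 for TXNIP and -0.16 to 1.29 for NDRG1.

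Guide numbers and culture letters were not taken to pair the samples. Deviations of same-numbered libraries from their group means correlated by 0.02 in e1 repression and -0.00 in ARV-771. The replicate block left 6 of the 10 genes called in e1 repression and gave 2807 calls over all genes there and 7090 after ARV-771, against 2764 and 7136 without it. Genes near 0 counts in KYSE140 (CA9 and EGLN3) limit what can be said of them at this depth.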

Other observations

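CA12, a carbonic anhydrase of the cell surface like CA9, rose with e1 repression (0.92 ± 0.29, edgeR adjusted p = 0.0186) and was not called with SOX2 knockout (0.29 ± 0.42). Its relatives CA11 (-0.85 ± 0.14, edgeR adjusted p = 1.6e-04) and CA10 (-0.95 ± 0.34, adjusted p = 0.0331) fell with e1 repression, and CA10 also with SOX2 knockout (-1.24 ± 0.33, adjusted p = 0.00809). CA12 was higher in the SKMES1 than in the KYSE140 controls by 5.38 ± 0.11 (edgeR adjusted p = 1.9e-10). RAMP1 and RAMP2 encode partners of the receptor protein CALCRL. They had 0 counts in each of the 6 KYSE140 control libraries. The SKMES1 controls had 86 and 88 counts of RAMP1 and 15 and 12 counts of RAMP2. VEGFC, a growth factor of lymph vessels, had 0 to 2 counts in the KYSE140 controls and 142 and 159 counts in the SKMES1 controls, while VEGFA did not pass the test (-0.08 ± 0.09, edgeR adjusted p = 0.434).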
